A study of Mus musculus with 8 samples.

Results

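Epidermal lipoxygenases and the enzymes of barrier ceramide synthesis were followed in mouse abdominal skin after topical shikonin, a naphthoquinone of the root of Lithospermum erythrorhizon. The genes were listed by name and role: Alox12e, Alox12b and Aloxe3 (lipoxygenases), Elovl4 and Fa2h (acyl chain), Sptlc2 and Cers3 (ceramide backbone), Ugcg (glucosylation) and Abca12 (lipid transport). They were chosen with earlier results of these data known. Of these 9 genes, 7 had a value on every array, each through 1 probe, among 9987 named genes measured. Cers3 and Abca12 had no probe under a current or older symbol in the annotation used, and were not analysed here. Whole-genome OneArray chips were hybridised with RNA of skin that had received 100 µl of shikonin at 10 µg/µl in acetone, or 100 µl of acetone alone, and was taken 4 h or 24 h later. The 4 groups (shikonin 4 h, acetone 4 h, shikonin 24 h and acetone 24 h) had 2 arrays each. All mice were female C57BL/6JNarl animals of 6 to 8 weeks, and all skin, the controls included, had received the solvent, so untreated skin was not part of the comparison. The methods describe duplicate samples on separate chips and independent experiments, without saying which mouse each array came from. The p-values reflect the scatter among these arrays alone, part of which may be technical.

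Values are one-colour array intensities on a linear scale, with array medians of 1128.8 to 1130.4. The replicate arrays of a group correlated at r = 0.986 to 0.992 across probes. Intensities under a floor of 203.4, the 5% level of all values, were set to it before log2 was taken, and a fold against a group with both arrays under that floor is given as "at least". Such a group has no spread of its own after flooring, so SEs and p-values that rest on it may be too small. Tests are from limma, fitted to all 8 arrays, and p-values were adjusted by Benjamini and Hochberg's method across 13853 probes with values, with a threshold of 0.05. Intensities of different probes are not compared with one another.

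The water barrier of the skin is made by granular and cornified keratinocytes, which fill the space between the cells with ceramides, cholesterol and free fatty acids. Epidermal ceramides carry unusually long acyl chains, some of them esterified at the far end to linoleic acid. ALOX12B and ALOXE3 oxidise that linoleate in sequence, a step needed to attach ceramides to the protein envelope of the corneocyte. Glucosylated ceramides are packed into lamellar bodies with the help of ABCA12, and inherited loss of ALOX12B, ALOXE3, CERS3 or ABCA12 causes ichthyosis in humans.

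The 3 lipoxygenase genes lie on mouse chromosome 11. Alox12b and Aloxe3 are direct neighbours in the order of coding genes, with Alox8 on the other side of Alox12b, whereas Alox12e lies elsewhere, between Alox12 and Alox15. Windows of 250 bases before a transcript start were taken from RefSeq (GRCm38.p6) for 7 of the 9 genes. Aloxe3 and Fa2h had no entry in that table. The transcript start used there lies inside the annotated gene for 3 of the 7, so that 190 bases of the window of Alox12e, 43 of that of Ugcg and all 250 of that of Cers3 are within the gene. Only bases outside the gene are printed, for 3 genes that fell (Alox12e, Alox12b and Elovl4) and for Ugcg, which moved the other way, to set the sequences of both directions side by side. They run 5′ to 3′ on the strand of the gene, and capitals mark letters that match a searched motif on either strand.
Alox12e (chr11:70322721-70322780, minus strand): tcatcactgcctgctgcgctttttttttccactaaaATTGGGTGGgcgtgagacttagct
Alox12b (chr11:69156822-69157071, plus strand): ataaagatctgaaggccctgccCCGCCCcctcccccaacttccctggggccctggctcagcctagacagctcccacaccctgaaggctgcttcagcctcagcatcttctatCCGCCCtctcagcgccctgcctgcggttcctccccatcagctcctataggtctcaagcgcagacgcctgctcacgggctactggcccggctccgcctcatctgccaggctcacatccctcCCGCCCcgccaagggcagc
Elovl4 (chr9:83806306-83806555, minus strand): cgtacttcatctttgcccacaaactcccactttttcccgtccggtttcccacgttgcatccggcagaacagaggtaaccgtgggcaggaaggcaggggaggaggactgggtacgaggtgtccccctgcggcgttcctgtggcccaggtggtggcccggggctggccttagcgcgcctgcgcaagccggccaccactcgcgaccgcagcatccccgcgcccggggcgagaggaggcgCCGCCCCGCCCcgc
Ugcg (chr4:59189300-59189506, plus strand): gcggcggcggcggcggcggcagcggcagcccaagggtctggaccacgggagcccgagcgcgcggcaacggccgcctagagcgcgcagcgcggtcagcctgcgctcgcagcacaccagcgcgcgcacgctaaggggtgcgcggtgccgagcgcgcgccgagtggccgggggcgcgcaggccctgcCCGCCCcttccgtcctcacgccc

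The motifs searched were the TATA box as TATAAA, the GC box as GGGCGG, the CCAAT box by its own letters, the AP-1 site as TGANTCA, the nuclear receptor core motif as AGGTCA and the KLF CACCC element as CCACCC. Over the whole windows, the bases inside genes included, the GC box was found for 5 of 7 genes (Alox12e, Alox12b, Elovl4, Ugcg and Sptlc2), against 32.7% of all promoter windows of this length. It was thus in windows of genes that fell and of Ugcg alike. The matches of Elovl4 overlap each other, and in Alox12e a CCAAT box and a CACCC element overlap on the minus strand. CCAAT was in 2 of 7 windows (33.8% of all promoters), the CACCC element in 1 (28.1%) and the nuclear receptor core motif in 1, that of Cers3 (14%). TATAAA and the AP-1 letters were in 0 of 7 windows, against 12.4% and 6.75% of all promoters. The share of G and C bases over the whole windows was 49.6% for Alox12e, 66.0% for Alox12b, 69.6% for Elovl4 and 80.4% for Ugcg, beside a median of 52.4% over all promoters. These matches describe the letters of the windows and are no evidence of binding.

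At 4 h after shikonin, 4 of the 7 measured genes were lower than in acetone skin (Alox12e, Alox12b, Aloxe3 and Fa2h), 1 was higher (Ugcg) and 2 did not pass the test (Elovl4 and Sptlc2). At 24 h, 5 were lower (Elovl4 in addition), Ugcg was higher and Sptlc2 did not pass. Of all probes at 4 h, 25.4% were called lower and 21.2% higher, and at 24 h 32.3% were called lower and 29.0% higher. The median log2 fold change of the 7 genes was -0.40 at 4 h and -3.01 at 24 h, beside medians over all probes of -0.06 and -0.02. In whole skin, fewer cells of a type and less RNA per cell cannot be told apart. With a rule of a 2-fold change, without a test, 2 genes were lower at 4 h (Alox12e and Alox12b) and 5 at 24 h, and 0 were higher at either time. The share of all probes under this rule is not given here, so these counts have no background to be judged by.

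**Figure D1:**
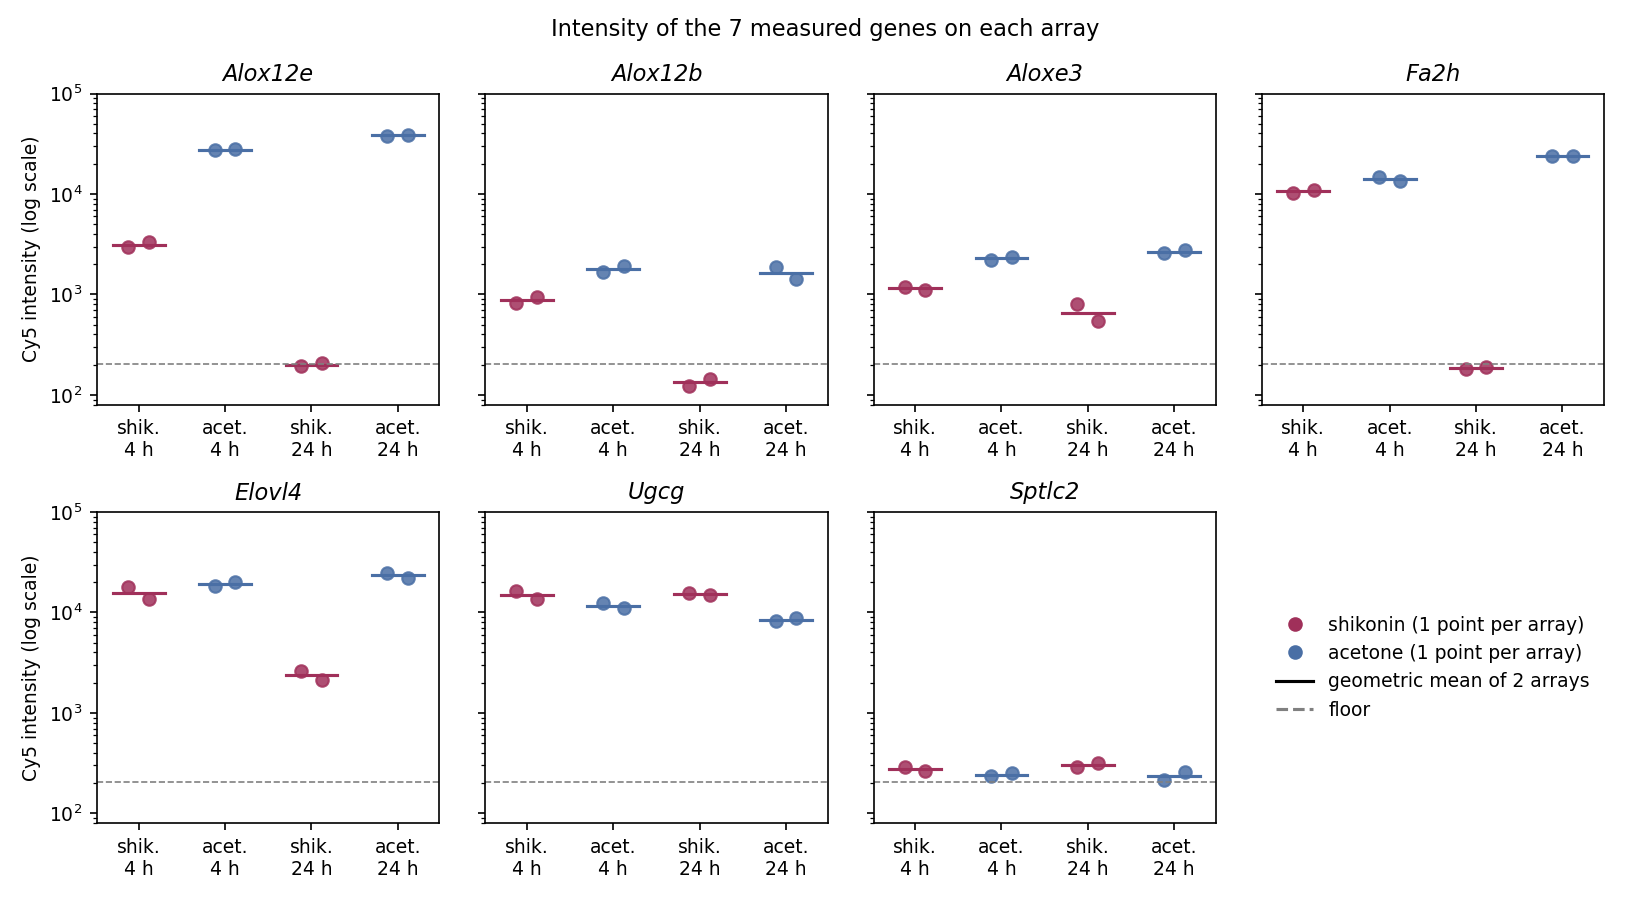
Intensity of each measured gene on every array (log axis), shikonin left of acetone at 4 h and then at 24 h; points are arrays, bars are group means on the log2 scale, n = 2 each, and the dashed line is the floor of 203.4. Fa2h and Alox12b lay under the floor on both arrays of shikonin skin at 24 h, while Ugcg was higher in shikonin than in acetone skin at both times.

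Alox12e, which encodes the epidermal 12S-lipoxygenase that oxygenates fatty acids in mouse epidermis, had intensities of 2942 and 3346 in shikonin skin at 4 h, against 27511 and 27814 in acetone skin. At 24 h it had 195 and 206 in shikonin skin, against 38095 and 38769 in acetone skin. Both shikonin groups lay far below their controls with no overlap, and at 24 h 1 of the 2 shikonin arrays was under the floor. The difference was -3.14 on the log2 scale at 4 h (SE 0.10, adjusted p = 7.59e-08 by limma), an 8.82-fold lower level. At 24 h it was -7.55 (SE 0.10, adjusted p = 2.17e-10 by limma), a 188-fold lower level against the floored values.

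Alox12b encodes the 12R-lipoxygenase that starts the oxidation of ceramide-bound linoleate. Its intensities were 831 and 953 in shikonin skin at 4 h, against 1681 and 1929 in acetone skin, a difference of -1.02 on the log2 scale (SE 0.17, adjusted p = 0.00115 by limma). At 24 h they were 124 and 144 in shikonin skin, against 1869 and 1440 in acetone skin. Both shikonin arrays at 24 h were thus under the floor, and the level was at least 8.07-fold lower (log2 fold change -3.01, SE 0.17, adjusted p = 4.97e-07 by limma). With the floor raised to the 25% level of all values the log2 fold change at 24 h was -1.85, still past the threshold.

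Aloxe3 encodes the hydroperoxide isomerase that acts on the product of ALOX12B. Its intensities were 1195 and 1115 in shikonin skin at 4 h, against 2197 and 2385 in acetone skin, and 797 and 543 in shikonin skin at 24 h, against 2574 and 2745 in acetone skin. All 4 shikonin arrays were below all 4 acetone arrays, and none was under the floor. The level was 1.98-fold lower at 4 h (log2 fold change -0.99, SE 0.18, adjusted p = 0.00198 by limma) and 4.04-fold lower at 24 h (-2.01, SE 0.18, adjusted p = 1.13e-05 by limma). Of the 3 lipoxygenases, Alox12e had the lowest log2 fold change at 4 h and Aloxe3 the least negative at 24 h. The value of Alox12b at 24 h is a bound and is not ranked against that of Alox12e. At 4 h Alox12b and Aloxe3, which act in sequence, had intervals that covered nearly the same range (-1.40 to -0.63 and -1.40 to -0.58).

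Elovl4, the elongase of very long acyl chains, had intensities of 18124 and 13705 in shikonin skin at 4 h, against 18475 and 20162 in acetone skin. The groups did not overlap, but the difference of -0.29 on the log2 scale did not pass the test (SE 0.15, 95% interval -0.64 to 0.06, adjusted p = 0.154 by limma). At 24 h the intensities were 2642 and 2124 in shikonin skin, against 24980 and 21921 in acetone skin. This was a 9.88-fold lower level (log2 fold change -3.30, SE 0.15, adjusted p = 1.58e-07 by limma), well above the floor on every array. Elovl4 thus passed the test at 24 h and not at 4 h.

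Fa2h, the hydroxylase that makes alpha-hydroxylated acyl chains for ceramides, changed little at 4 h and far more at 24 h. Its intensities were 10247 and 10991 in shikonin skin at 4 h, against 14628 and 13443 in acetone skin, a 1.32-fold lower level (log2 fold change -0.40, SE 0.10, adjusted p = 0.0102 by limma). At 24 h they were 180 and 189 in shikonin skin, against 23609 and 23666 in acetone skin. Both shikonin arrays at 24 h were under the floor, and the level was at least 116-fold lower (log2 fold change -6.86, SE 0.10, adjusted p = 2.83e-10 by limma). The smaller change at 4 h lost the call without replicate 1 of acetone skin at 4 h (-0.34, adjusted p = 0.0977 by limma).

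Sptlc2 encodes a catalytic subunit of serine palmitoyltransferase, the enzyme that makes the sphingoid base. Its intensities were near the floor throughout, 292 and 264 in shikonin skin at 4 h, against 235 and 251 in acetone skin, and 290 and 314 in shikonin skin at 24 h, against 213 and 259 in acetone skin. The groups did not overlap at either time, but neither difference passed the test. The log2 fold change was 0.19 at 4 h (95% interval -0.15 to 0.53, adjusted p = 0.326 by limma) and 0.36 at 24 h (0.02 to 0.70 before adjustment, adjusted p = 0.0611 by limma). Without replicate 2 of acetone skin at 24 h the second value was 0.51 and passed (adjusted p = 0.0304 by limma).

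Ugcg, the glucosyltransferase that makes glucosylceramide for lamellar bodies, was the measured gene that rose. Its intensities were 16469 and 13536 in shikonin skin at 4 h, against 12352 and 10999 in acetone skin. At 24 h they were 15758 and 14781 in shikonin skin, against 8197 and 8713 in acetone skin. The shikonin arrays were above their own controls at both times, by 1.28-fold at 4 h (log2 fold change 0.36, SE 0.12, adjusted p = 0.0311 by limma) and by 1.81-fold at 24 h (0.85, SE 0.12, adjusted p = 1.73e-04 by limma). The rise at 4 h lost the call in 9 of 19 alternative settings, 5 of them with 1 array left out (either acetone array of 4 h, replicate 1 of shikonin skin at 4 h or either shikonin array of 24 h), where it was 0.22 to 0.44 with adjusted p = 0.0506 to 0.19 by limma. The acetone arrays themselves were lower at 24 h than at 4 h, and against the acetone arrays of 4 h the rise at 24 h was 0.39 (adjusted p = 0.0174 by limma).

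**Figure D2:**
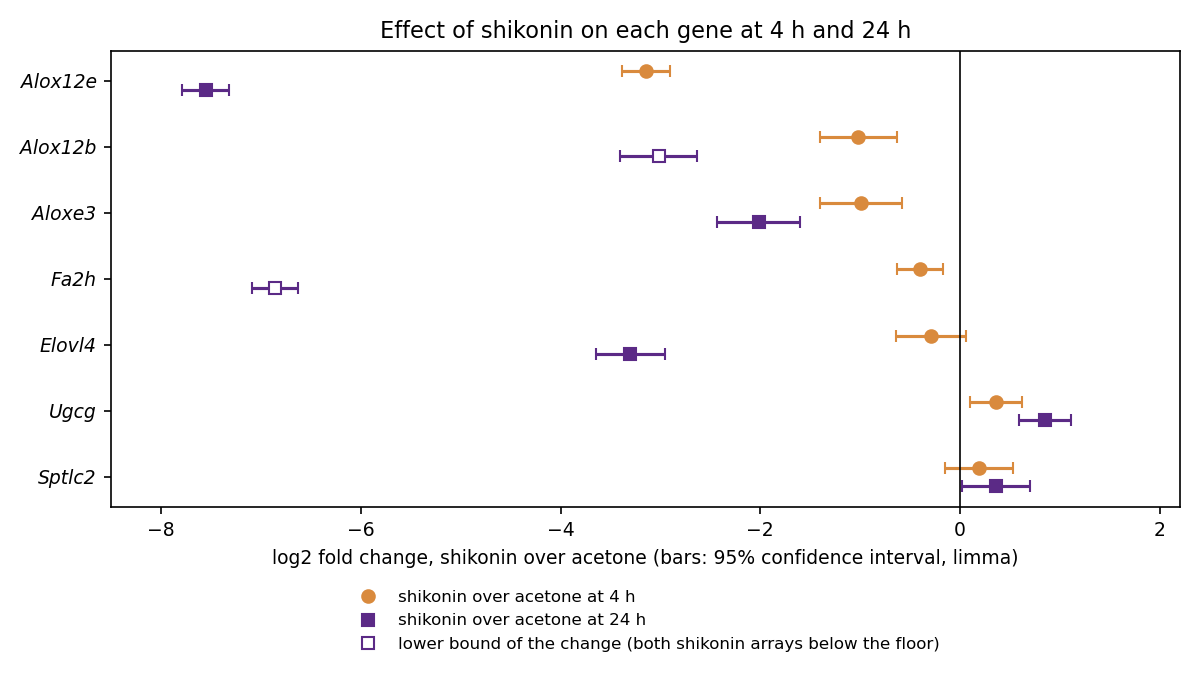
Log2 fold change of shikonin over acetone at 4 h and 24 h for each measured gene, with 95% intervals from limma (n = 2 arrays a group); open squares are lower bounds of the size of the change. At 24 h the values run between -7.55 for Alox12e and 0.85 for Ugcg, and the intervals of Elovl4 at 4 h and of Sptlc2 at 4 h include 0.

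By the interaction term in limma, the effect of shikonin against controls of its own time differed between the times for 6 of the 7 genes. It was lower at 24 h for 5 and higher for Ugcg. Of all probes, 22.2% were called lower and 21.1% higher by this term. The difference of the log2 fold changes was -6.46 or lower for Fa2h (adjusted p = 6.62e-08 on the floored values) and -2.0 or lower for Alox12b (adjusted p = 2.17e-04 on the floored values), bounds since both shikonin arrays at 24 h were under the floor. It was -4.41 for Alox12e (SE 0.15, adjusted p = 2.18e-07 by limma), with 1 of these arrays under the floor, -3.01 for Elovl4 (adjusted p = 9.82e-06 by limma) and -1.03 for Aloxe3 (adjusted p = 0.0111 by limma). The lipoxygenases and Fa2h were thus lower by 4 h, and each of them, like Elovl4, stood lower still at 24 h. Ugcg had a mean log2 intensity of 13.87 at 4 h and 13.90 at 24 h in shikonin skin, against 13.51 and 13.04 in acetone skin. Its level thus moved between the times in the acetone arrays and hardly in the shikonin arrays. For Ugcg the difference of the effects was 0.50 (adjusted p = 0.0359 by limma), and it lost the call in 8 of 17 alternative settings. In 6 of these an array was left out (acetone replicate 1 or shikonin replicate 2 of 4 h, or any array of 24 h), and it was 0.35 to 0.54 with adjusted p = 0.0538 to 0.131 by limma. The call for Aloxe3 was lost without replicate 1 of acetone skin at 4 h (-0.97, adjusted p = 0.0514 by limma) and when arrays were centred on ribosomal protein genes (-0.65, adjusted p = 0.11 by limma). For Sptlc2 the difference was 0.17 (95% interval -0.31 to 0.65, adjusted p = 0.551 by limma).

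The solvent groups give the background of these changes, and they differed in immune markers too. Of the neutrophil markers, 6 of 8 measured were lower in acetone skin at 24 h than at 4 h (median -2.03), with summed intensities of 21579 to 21634 at 24 h, against 83026 to 90792 at 4 h, and of the monocyte and macrophage markers 4 of 7 were lower and 1 higher (median -0.92). Their part in the changes of the barrier genes was not tested. In acetone skin, 2 of the 7 genes were higher at 24 h than at 4 h (Fa2h and Alox12e) and 1 was lower (Ugcg), beside 15.5% and 14.2% of all probes. The log2 difference was 0.75 for Fa2h (SE 0.10, adjusted p = 0.00133 by limma), 0.47 for Alox12e (SE 0.10, adjusted p = 0.0106 by limma) and -0.46 for Ugcg (SE 0.12, adjusted p = 0.0173 by limma). The call for Alox12e was lost without either acetone array of 4 h (adjusted p = 0.0776 and 0.0819 by limma), and that for Ugcg without either of them or without replicate 1 of acetone skin at 24 h (adjusted p = 0.0503 to 0.121 by limma). The 3 differences were smaller in size than the changes of Alox12e at either time and of Fa2h at 24 h, but larger than the change of Fa2h or Ugcg at 4 h. Set against the acetone arrays of 24 h, the shikonin arrays of 4 h had -1.16 for Fa2h, 0.82 for Ugcg and -0.57 for Elovl4, and Elovl4 then passed the test (adjusted p = 0.0119 by limma). The calls for Alox12e, Alox12b and Aloxe3 at both times and for Fa2h and Elovl4 at 24 h were kept with either set of controls.

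Enzymes around the lipoxygenases moved in both directions. In a list of the lipoxygenase and acylceramide route, 13 of 17 genes were measured: at 4 h 5 were higher, 5 lower and 3 did not pass (median log2 fold change -0.17), and at 24 h 2 were higher, 9 lower and 2 did not pass (-1.40). Alox12, the platelet-type relative next to Alox12e, rose by 0.73 on the log2 scale at 4 h (adjusted p = 0.00517 by limma), while Alox12e fell, and at 24 h it fell by 1.40 (adjusted p = 5.67e-05 by limma); against the acetone arrays of the other time it had 0.24 at 4 h, which did not pass (adjusted p = 0.245 by limma), and -0.91 at 24 h. Lipm, an epidermal lipase, had 132 and 133 in shikonin skin at 24 h, against 4717 and 5505 in acetone skin, and it was already lower at 4 h (-1.81, adjusted p = 1.43e-05 by limma). Its change at 24 h was a bound (log2 fold change -4.65 or lower, adjusted p = 1.33e-08 by limma). Cyp4f39, the hydroxylase of the far end of the acyl chain to which linoleate is later attached, changed by -3.48 at 24 h (adjusted p = 9.18e-07 by limma), and Sdr9c7, which oxidises the linoleate further, by -1.27 at 4 h (adjusted p = 1.00e-04 by limma). The genes that rose at 24 h were Alox5 (0.95, adjusted p = 5.63e-04 by limma) and Alox5ap (at least 3.84-fold higher, after at least 2.80-fold at 4 h, with 1 saturated shikonin array at each time), the lipoxygenase of leukotriene synthesis and its activating protein. Slc27a4, a fatty acid transporter and activating enzyme of the epidermis, had 1.0 at 4 h (adjusted p = 3.41e-04 by limma), but 0.15 against the acetone arrays of 24 h, which did not pass (adjusted p = 0.373 by limma).

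In fatty acid elongation, 15 of 20 genes were measured. At 4 h 2 were higher, 6 lower and 7 did not pass (median -0.21), and at 24 h 3 were higher, 12 lower and 0 did not pass (-1.66), so that Elovl4 fell along with most of this list at 24 h. Elovl6, which lengthens chains ahead of ELOVL4, had 1021 and 1152 in shikonin skin at 24 h, against 32783 and 26720 in acetone skin (log2 fold change -4.77, adjusted p = 1.74e-08 by limma). Acacb, an acetyl-CoA carboxylase, changed by -3.76 at 24 h (adjusted p = 3.55e-08 by limma), and Fabp5, the epidermal fatty acid binding protein, by -0.57 at 4 h (adjusted p = 0.00141 by limma). Hacd4, a dehydratase of the elongation cycle, rose at both times (1.06 at 4 h, adjusted p = 0.00119 by limma, and 1.80 at 24 h, adjusted p = 2.12e-05 by limma), and Hacd1, another dehydratase, rose at 24 h (1.01, adjusted p = 0.00296 by limma). When controls of the other time were used, the calls for Hacd4 at 4 h (0.41, adjusted p = 0.0768 by limma) and for Hacd1 at 24 h (0.29, adjusted p = 0.271 by limma) were lost. Acsl1, an acyl-CoA synthetase, had no settled direction at 4 h, with 1.11 against its own controls (adjusted p = 1.30e-04 by limma) and -0.61 against the acetone arrays of 24 h (adjusted p = 0.00317 by limma), between which acetone skin itself differed by 1.73. Elovl1, another elongase of long chains, was measured by probes that disagreed: the brighter had -1.0 at 4 h (adjusted p = 3.72e-04 by limma) and the other 0.98, so that no direction is given for the gene. It still entered the count at 4 h as lower, through the brighter probe, and Acsl1 entered it as higher. The counts at 4 h depended on the controls: against the acetone arrays of 24 h, 3 genes were higher, 11 lower and 1 did not pass (-0.61). The median over all probes in that comparison was -0.08, and the share of all probes called in it is not given here.

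For sphingoid base and ceramide synthesis, 13 of 15 genes were measured, with 3 higher, 5 lower and 5 not passing at 4 h (median -0.35) and 3 higher, 8 lower and 2 not passing at 24 h (-0.80). Sptlc3, an alternative catalytic subunit to SPTLC2, had 452 and 518 in shikonin skin at 24 h, against 5995 and 6362 in acetone skin. Its log2 fold change of -3.67 (adjusted p = 1.53e-08 by limma) stood beside 0.36, not passing, for Sptlc2. Sptssa, a small activating subunit of the same enzyme, changed by -1.30 at 4 h (adjusted p = 8.42e-06 by limma), and Ormdl1, which restrains the enzyme, by -0.88 at 4 h (adjusted p = 3.30e-04 by limma). Ceramide synthases also went both ways: Cers5 changed by -1.83 at 24 h (adjusted p = 4.63e-07 by limma), whereas Cers6 was at least 2.78-fold higher at 24 h (adjusted p = 2.56e-05 by limma). Degs2, which makes phytoceramides, rose at 4 h (0.49, adjusted p = 0.0178 by limma) and at 24 h (1.01, adjusted p = 2.00e-04 by limma). Set against controls of the other time, it had 1.15 at 4 h and 0.36 at 24 h, which did not pass (adjusted p = 0.0547 by limma).

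Downstream of ceramide, 24 of 25 genes of glucosylceramide, sphingomyelin and ceramide turnover were measured. At 4 h 7 were higher, 11 lower and 6 did not pass (median -0.37), and at 24 h 8 were higher, 11 lower and 5 did not pass (-0.18). B4galt5, the lactosylceramide synthase that uses the product of UGCG, rose along with Ugcg, by 1.48 at 4 h (adjusted p = 7.35e-04 by limma) and at least 11.8-fold at 24 h (adjusted p = 1.19e-06 by limma). Sgms1, a sphingomyelin synthase, rose at 4 h (1.22, adjusted p = 6.50e-04 by limma), and Sgms2 was at least 3.74-fold higher at 24 h (adjusted p = 7.43e-04 by limma). Against the acetone arrays of 24 h, B4galt5 at 4 h had 2.64 or more, and the call for Sgms1 was lost (0.46, adjusted p = 0.0598 by limma). Acer1, the alkaline ceramidase of epidermis, had 355 and 395 in shikonin skin at 24 h, against 19076 and 18400 in acetone skin (log2 fold change -5.64, adjusted p = 7.85e-10 by limma). Smpd3, a neutral sphingomyelinase, changed by -3.57 or lower at 24 h (adjusted p = 6.32e-08 by limma). Asah2 and Sgpp1, a neutral ceramidase and a sphingosine phosphate phosphatase, changed by -2.44 and -1.95 at 4 h (adjusted p = 1.15e-06 and 2.57e-05 by limma). For Sgpp1 the value at 4 h was -1.01 against the acetone arrays of 24 h.

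Of the regulators of barrier lipid genes, 16 of 20 were measured, with 4 higher, 5 lower and 7 not passing at 4 h (median -0.09) and 3 higher, 9 lower and 4 not passing at 24 h (-1.82). Klf4, a transcription factor of late epidermal differentiation, fell at 4 h by 1.40 on the log2 scale through its brightest probe (adjusted p = 8.19e-06 by limma), and by 0.56 and 0.64 through the others. The probes of Cebpa disagreed at 4 h, the brighter with -1.13 (adjusted p = 3.76e-05 by limma) and the other with 0.82 (adjusted p = 0.00511 by limma), so that no direction is given. Cebpa still entered the count at 4 h as lower, through the brighter probe. Gata3 and Grhl1, 2 epidermal transcription factors, changed by -3.68 and -3.42 at 24 h (adjusted p = 3.35e-08 and 4.17e-08 by limma). Cebpb, which responds to inflammatory signals, rose by 1.88 at 4 h and 1.71 at 24 h (adjusted p = 5.31e-07 and 2.81e-07 by limma). The brighter probe of Arnt, the partner of the aryl hydrocarbon receptor, had 0.97 at 4 h (adjusted p = 3.02e-04 by limma), but -0.09 against the acetone arrays of 24 h (adjusted p = 0.565 by limma), whereas the other probe had 1.14 and 1.48. Nr1h3, the liver X receptor alpha, rose at 24 h (1.18, adjusted p = 5.63e-04 by limma).

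**Figure D3:**
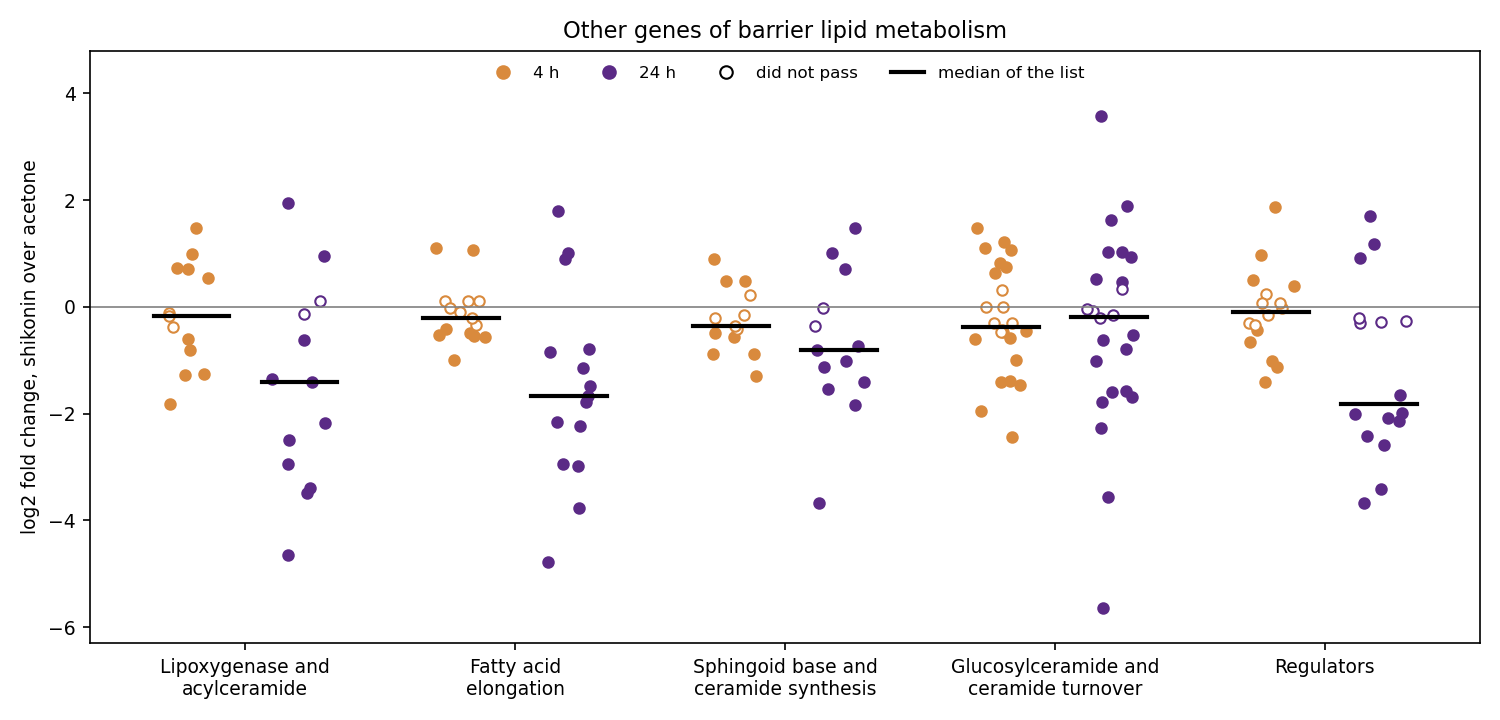
Log2 fold change of shikonin over acetone at 4 h and 24 h for each measured gene of the 5 pathway lists; points are genes, open where the test was not passed, and bars are list medians. The medians at 24 h run between -1.82 for the regulators and -0.18 for the turnover list.

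Markers of other and of the same cells moved with these genes. Of 14 markers of suprabasal and granular keratinocytes, in which the barrier genes are used, 13 were measured: 10 were lower, 1 higher and 2 did not pass at 4 h (median -1.28), and 12 were lower, 0 higher and 1 did not pass at 24 h (-3.84). Their summed intensity was 152563 to 159694 in shikonin skin at 4 h, against 368462 to 375853 in acetone skin, and 67969 to 70539 in shikonin skin at 24 h, against 366224 to 379132 in acetone skin. Krt1, Flg and Dsg1a, markers of differentiated layers, were under the floor on both shikonin arrays at 24 h. Acetone skin thus held the defining markers of the layer, and in shikonin skin at 24 h 3 of the 13 were not measurable above the floor. Of 9 basal keratinocyte markers, 4 were lower and 1 higher at 4 h and 5 were lower and 0 higher at 24 h (median -1.45), with summed intensities of 81221 to 82217 in shikonin skin at 24 h, against 138805 to 145211 in acetone skin. The probes of Itga6, a basal marker counted as lower at 4 h, disagreed. Its brighter probe had -0.58 at 4 h and -0.23, not passing, at 24 h. The other probe was higher at both times, with 0.72 at 4 h and 0.87 at 24 h. Krt14, a basal keratin, was at or near saturation on all 8 arrays, so a change in it could be missed. Krt10, Krtdap and Sbsn reached saturation in acetone skin at both times, and Lor at 4 h. The summed intensities of the suprabasal list in acetone skin may thus be too low. The part of these markers in the changes of the barrier genes was not tested.

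Markers of other cell types moved too. Of 11 sebocyte markers 7 were measured, and at 24 h 5 were lower and 1 higher, with summed intensities of 63756 to 64847 in shikonin skin, against 146504 to 153660 in acetone skin, and with Scd3 and Awat2 under the floor in shikonin skin. Of 10 neutrophil markers 8 were measured, and 7 were higher at 4 h and 8 at 24 h, with summed intensities at 24 h of 252817 to 256929 in shikonin skin, against 21579 to 21634 in acetone skin. Of 9 markers of inner root sheath and hair shaft 7 were measured, and all 7 were higher at 4 h (178685 to 182507 in shikonin skin, against 5711 to 5835 in acetone skin), whereas 5 were lower and 1 higher at 24 h. The shikonin arrays at 4 h thus stood apart in hair genes. The lipoxygenases were lower on the same arrays. The part of the hair gene difference in the values at 4 h was not tested. Monocyte and macrophage markers, 7 of 8 measured, had 5 higher and 1 lower at 24 h. Adipocyte markers, 6 of 7 measured, had 5 lower and 0 higher at 24 h (median -1.60), with summed intensities of 76775 to 77773 in shikonin skin, against 163025 to 164944 in acetone skin. At 4 h, 5 of 5 skeletal muscle markers and 4 of 7 fibroblast markers were lower (medians -0.74 and -0.57). Some bright markers reached saturation at 24 h, Retnlg and S100a8 in shikonin skin and Scd1 and Cfd in acetone skin. Sums that hold them may be too low.

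**Figure D4:**
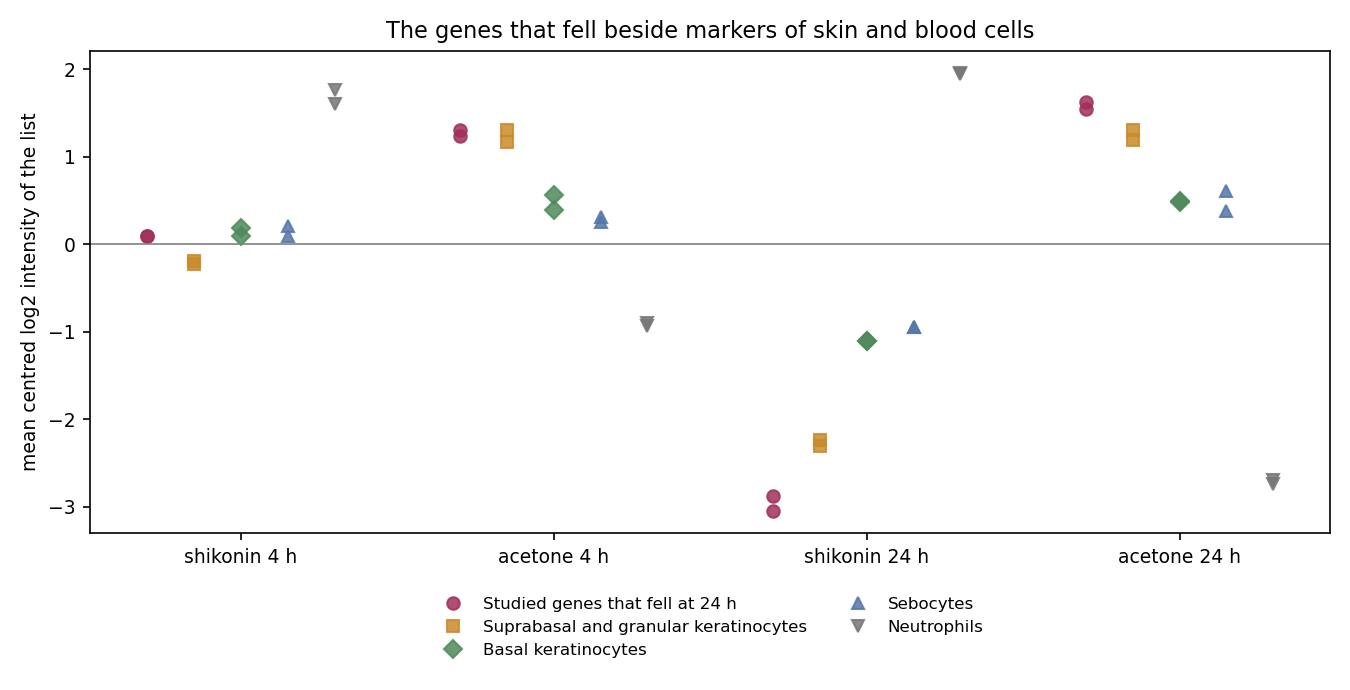
Mean log2 intensity on every array, each gene centred on its mean over the 8 arrays, for the 5 studied genes that fell at 24 h and for the markers of suprabasal and granular keratinocytes, basal keratinocytes, sebocytes and neutrophils; each point is 1 array. The 5 genes had -2.88 and -3.05 in shikonin skin at 24 h, against 1.63 and 1.54 in acetone skin. The suprabasal list had -2.30 and -2.23, against 1.19 and 1.30. Since the 5 genes were picked by their fall at 24 h and the markers were not, the depths of the 2 are not compared. All 7 measured genes had -1.98 and -2.10 in shikonin skin at 24 h, against 1.04 and 1.03 in acetone skin.

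Among themselves the genes followed a shared profile apart from Ugcg and Sptlc2. The mean of the 7 genes, each centred on its own mean over the 8 arrays, was 0.16 and 0.09 in shikonin skin at 4 h, against 0.86 and 0.90 in acetone skin, and -1.98 and -2.10 in shikonin skin at 24 h, against 1.04 and 1.03 in acetone skin. Over the 8 arrays, Pearson's r with this mean, which holds the gene itself, was 0.98 for Alox12e, 0.99 for Alox12b, 0.94 for Aloxe3, 0.98 for Fa2h, 0.99 for Elovl4, -0.70 for Ugcg and -0.79 for Sptlc2. These values are descriptions, since the arrays fall into 4 groups that the treatment sets apart. Of 921 named genes with an SD of at least 1 on the log2 scale, those whose profile was most like the mean were Timp3 (r = 0.9996), Rnase2a (0.9992), Tnfrsf19 (0.9989), Ly6g6c (0.9987) and Esrp1 (0.9984). Their log2 fold changes at 24 h were -3.37 for Timp3, -4.36 or lower for Rnase2a, -4.85 for Tnfrsf19, -3.77 for Ly6g6c and -4.02 for Esrp1.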

How the data were processed

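Skin RNA was profiled on 8 one-colour Mouse OneArray chips, 2 per group. The deposited table holds linear intensities that the authors had measured from Cy5-labelled targets with GenePix software; 16069 of its 29922 probes are blank, and the other 13853 have values on all 8 arrays. The array medians are nearly equal, but how the authors scaled the arrays to one another is not stated, and the number of arrays limits the precision. Probes were named through the platform annotation, with symbols updated to current RefSeq names for 1814 of 11550 named probes; of several probes of a gene, the brightest on average was taken.

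Intensities were floored at 203.4 (5% level) and tested on the log2 scale with limma 3.58.1 in R 4.3.3 (group means, eBayes with intensity trend), with Benjamini-Hochberg adjustment over all probes. Plots and tables were made in Python 3.11.15. The fit was tested on simulated data. Alternatives varied the floor, scaling, filter, trend, array weights, controls, the samples fitted and each replicate.

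The genes studied and the gene lists were chosen with earlier results of these data known. Of each pathway list, the 2 highest and 2 lowest genes that passed at each time are named; Alox12 was added after its values were seen. Promoter windows are from RefSeq (GRCm38.p6).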

Additional observations from a re-analysis of the deposited data

Results flagged for a closer look

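For 6 of the 7 measured genes the effect of shikonin differed between the times by limma's interaction term. The log2 fold change at 24 h minus that at 4 h was -4.41 for Alox12e, -1.03 for Aloxe3, -3.01 for Elovl4 and 0.50 for Ugcg. For Alox12b and Fa2h, under the floor on both shikonin arrays at 24 h, it was a bound, -2.0 or lower and -6.46 or lower. Ugcg had nearly the same mean log2 intensity in shikonin skin at both times (13.87 at 4 h and 13.90 at 24 h), while acetone skin had 13.51 and 13.04. The cause of the differences between the times was not tested.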

How the results depend on the processing

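Of 28 gene results (7 genes, 4 comparisons), 18 kept their direction and side of the threshold in every alternative that gave them a value, and 10 changed in at least 1. The number of studied genes higher at 4 h (1) was 0 with the floor at the 25% level, centring on ribosomal protein genes, no intensity trend, arrays of that time only or a 2-fold rule, and 0 to 1 with an array left out. The number lower at 4 h (4) was 2 with the 2-fold rule. It also changed in the settings named for Fa2h, which lost its call, Elovl4, which passed, and Alox12b, which dropped out. The number higher at 24 h (1) was 2 with ribosomal centring or no intensity trend, 0 with the 2-fold rule, and 1 to 2 with an array left out. For the difference between the times, the number higher (1) was 0 with the floor at the 25% level or no trend, and 0 to 1 with an array left out. The number lower changed in the settings where Aloxe3 lost its call. Between the acetone groups, the number lower (1) was 0 with the floor at the 25% level and 0 to 1 with an array left out, and the number higher (2) was 1 with ribosomal centring and 1 to 2 with an array left out. The change of Alox12b between the acetone groups (-0.13) was -0.32 to 0.05 with an array left out, positive without acetone 24 h replicate 2, and that of Sptlc2 (-0.05) was -0.19 to 0.09, positive without acetone 24 h replicate 1; neither passed. The causes were not tested.

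Fa2h at 4 h also lost its call with ribosomal centring (-0.45, adjusted p = 0.0703 by limma), and Elovl4 passed at 4 h without shikonin 4 h replicate 1 (-0.49, adjusted p = 0.0462 by limma). Sptlc2 passed at 24 h with ribosomal centring (0.70, adjusted p = 0.00731 by limma) and no trend (0.36, adjusted p = 0.0486 by limma). Ribosomal centring moved the median of all probes at 24 h to 0.31 (-0.02 before) and its calls to 5598 higher and 2498 lower (4022 and 4481 before); for the difference between the times the calls were 4345 and 1332 (2928 and 3071 before), and between the acetone groups 652 and 2352 (2144 and 1961 before). Fitting only the brighter 50% of probes gave 1531 higher and 2021 lower at 4 h (2936 and 3514 before), 2068 and 2555 at 24 h, 1685 and 1824 for the difference, and 1281 and 1262 between the acetone groups, with fewer probes tested; Alox12b and Sptlc2 dropped out. At 4 h, 2308 probes were lower without acetone 4 h replicate 2. Between the acetone groups, 1149 were lower with the floor at the 25% level, and with an acetone array left out 787 to 995 were higher and 842 to 961 lower.

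The labels do not say that replicate numbers pair arrays, and the replicate differences of the groups correlated at -0.21 to 0.21 across probes. With the replicate number as a block, 1 studied gene was higher and 4 lower at 4 h, and 1 was higher and 5 lower at 24 h, as without it, and no other call of a studied gene changed. Levels under the floor limit what can be said of Fa2h and Alox12b at 24 h. Alox12e lay at the floor in shikonin skin at 24 h (195 and 206), so the size of its change depends on the floor too. Over the alternatives its log2 fold change at 24 h was -7.58 to -6.4, and its difference between the times -4.51 to -3.26.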
